A study of Acipenser ruthenus with 35 samples.

Results

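Section A, the extreme animal end of the oocyte, was compared with section B, the next section along the animal-vegetal (A-V) axis, in small oocytes of the sterlet, Acipenser ruthenus, a sturgeon. The comparison rests on 6 of the 35 libraries of the series, namely sections A and B of oocytes 5, 6 and 8, and each A library is paired with the B library cut from the same cell. Small oocytes are early vitellogenic, which means that yolk uptake has begun, and the labels give diameters of 1320, 1380 and 1500 µm for oocytes 5, 6 and 8. They were taken by biopsy from 1 mature female and received no treatment. Each oocyte was frozen with its animal pole upwards and cut into slices, which were divided in order into 5 tubes with equal numbers of slices. Section C is the central one, D lies on the vegetal side and E is the extreme vegetal end, so that A is opposite E and the end sections are the caps of the sphere. Sections C, D and E of the same oocytes, together with C, D and E of oocyte 7 (1440 µm), entered the same model, which held 18 libraries. Big oocytes (advanced vitellogenic, 1920 to 2100 µm, untreated, from a different single female) gave 8 libraries of A and B, from oocytes 1, 2, 3 and 11, and served for comparison of the step between the sections. The replicates of a stage are therefore cells of 1 female, and stage and female cannot be told apart.

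In fish and frog oocytes the A-V axis is the first axis of the future embryo. Maternal RNAs are stored unevenly along it, the animal side later contributes mostly to ectoderm and the vegetal side holds most of the yolk, and RNAs that germ cells need are often kept at the vegetal side. The large nucleus of the oocyte, the germinal vesicle, lies near the centre of young oocytes and closer to the animal pole in grown ones. How RNAs come to be held at the animal end is less well known than the routes to the vegetal end. The questions asked here were which transcripts were already concentrated in A at the early vitellogenic stage, and which became more abundant on going from A to B.

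The axis markers of the study are shown first by the primers used for them, because these are the only sequences that tie an identifier of the assembly to a gene. Positions are not marked, so no letter is capitalised.
exd2 forward: gtgttggtggaaagacaggaaga
exd2 reverse: gcaccggcaaccccaaa
slc44a3 forward: aggctgctcttcggctatg
slc44a3 reverse: acacctccttccgatcagtc
dnd1 forward: ggactcagaaaatggggatctccctgg
dnd1 reverse: aaacctcacagccagaggaaggggg
The exd2 pair amplifies 118 bases of TRINITY_DN53171_c2_g1_i1_1, the slc44a3 pair 109 bases of TRINITY_DN46825_c2_g1_i1_1 and the dnd1 pair 108 bases of TRINITY_GG_79323_c2_g1_i2_1. All other transcripts are known here only by the identifier of the assembly, since none of the identifiers (0 of 49027) matched the RefSeq table of 80041 genes of the species. Markers of follicle cells, the somatic cells that surround an oocyte, could not be looked up for that reason, and their part in the results was not tested.

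The A libraries held 4198644, 2892323 and 2476190 counts in oocytes 5, 6 and 8, and the B libraries 4669836, 4946568 and 5034718. Section A was thus the shallower library of the pair in every oocyte. It also had fewer transcripts detected (38552 to 40533, against 41015 to 41704 in B) and a larger share of its counts in its 10 most abundant transcripts (4.98% to 5.77%, against 4.02% to 4.93%). Each library was made from the same amount of RNA within the stage and the libraries were pooled in equal amounts, so the counts describe the composition of the RNA of a section and not how much RNA it held. A section with less of a transcript and a section with more of all the others cannot be told apart.

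The markers behaved in these libraries as their labels as animal or vegetal transcripts say. The transcript of exd2, which encodes a protein with an exonuclease domain, was at 599 CPM (the usual unit of counts scaled to the total of their library) in A of oocyte 5, 594 in oocyte 6 and 475.7 in oocyte 8. In B of the same oocytes it was at 34.9, 56.8 and 38.9 CPM. No B library came near an A library, and the fitted difference was 13.5-fold (log2 3.75 ± 0.101, SE, edgeR adjusted p = 1.04e-23). A further drop lay between B and C (log2 2.73, adjusted p = 4.5e-14), where the 4 libraries held between 5.61 and 8.16 CPM. When the 5 sections of an oocyte were scaled to each other and given equal weight, A held 90.5% ± 1.68 (SD, n = 3) of the exd2 total.

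The transcript of slc44a3, a member of the choline transporter-like family, was at 117.9, 114.1 and 95.3 CPM in A of oocytes 5, 6 and 8 and at 11.1, 20.2 and 13.5 CPM in B. The levels in A were again apart from those in B, by 7.79-fold (log2 2.96 ± 0.162, edgeR adjusted p = 1.38e-15). Section A held 82.9% ± 4.82 (SD, n = 3) of its scaled total. The vegetal marker dnd1, an RNA-binding protein that vertebrate germ cells need to survive, was at 101.5, 88.2 and 86.8 CPM in A and at 105.8, 101.1 and 97.7 CPM in B. Its levels overlapped between the sections, and the difference did not pass the test (log2 -0.08 ± 0.081, edgeR adjusted p = 0.769). Its level was higher in each section beyond B, up to between 189.2 and 242.5 CPM in E. The study kept only oocytes with continuous marker gradients for sequencing, so that the profiles of markers, which decided whether an oocyte entered, are no independent evidence of localization.

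**Figure D1:**
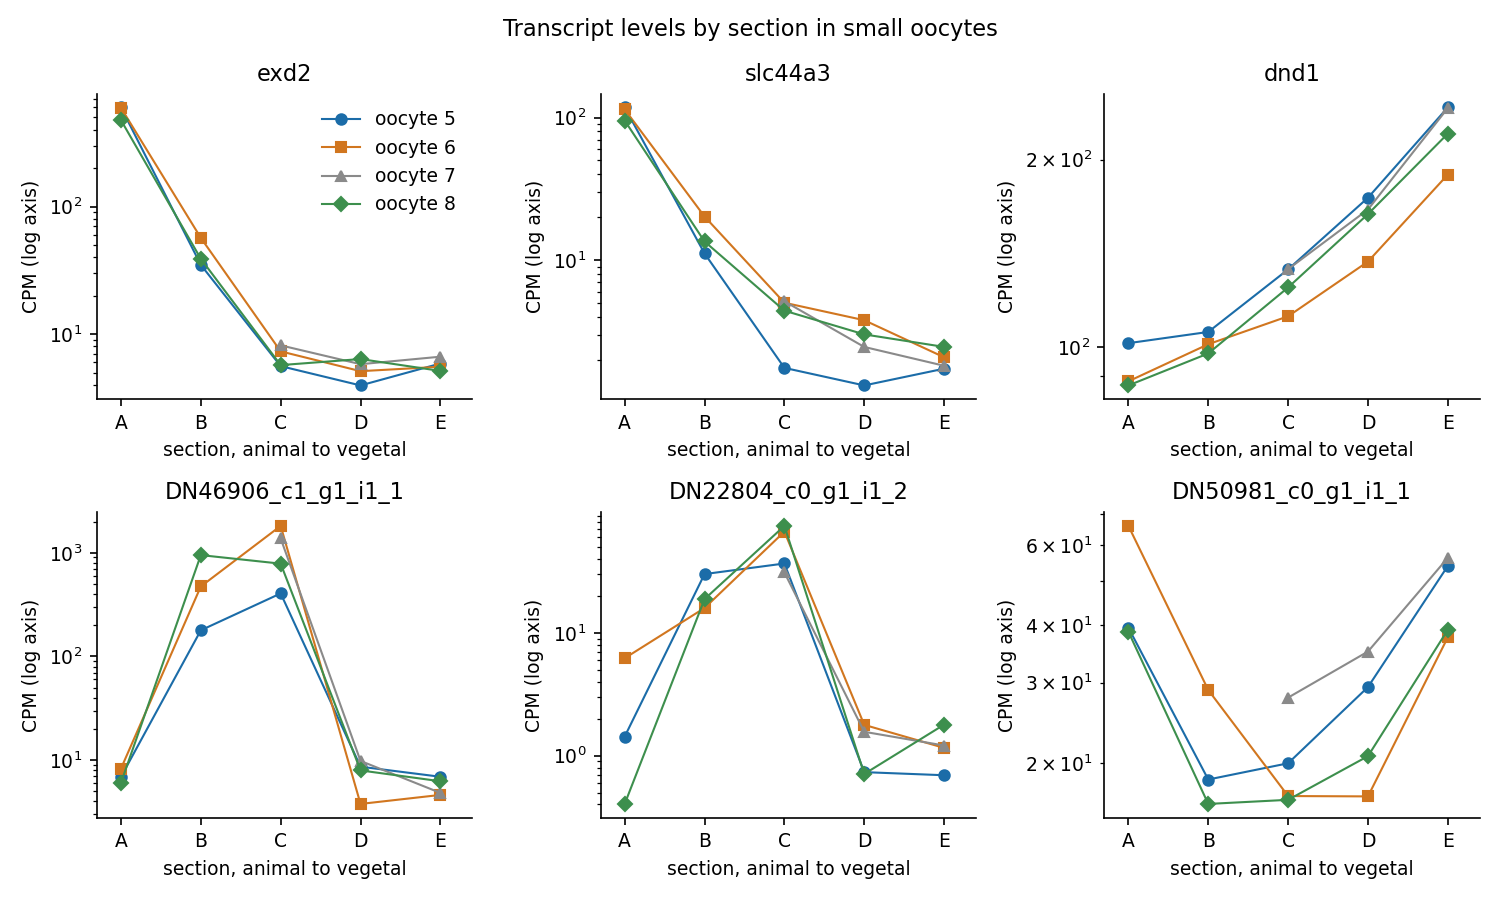
Levels of 6 transcripts (CPM, log axis) in sections A to E of small oocytes, 1 line for each oocyte (oocyte 7 has sections C, D and E only); the prefix TRINITY_ is left out of identifiers. The levels of exd2 and slc44a3 drop from A to B and again to C, dnd1 rises towards E, TRINITY_DN46906_c1_g1_i1_1 and TRINITY_DN22804_c0_g1_i1_2 are high in B and C alone, and TRINITY_DN50981_c0_g1_i1_1 is high at both ends.

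Among 30340 transcripts with a scaled count over 20 per oocyte, the test called 1223 higher in A than in B (4.03%) and 353 higher in B than in A (1.16%), at an adjusted p under 0.1. Together these are 5.19% of the transcripts tested. The balance of directions depended on the scaling, since 1030 and 879 were called with libraries scaled by their totals, which is 54.0% of calls towards A in place of 77.6%, with the median log2 ratio at -0.06. The step from A to B was close in its share of calls to the step at the opposite end, from D to E (1521 transcripts, 5.01%), while fewer calls lay between C and D (448, 1.48%, of which 0.577% had C above D and 0.900% D above C) and between B and C (176, 0.580%, of which 0.277% had B above C and 0.303% C above B). In terms of composition, the animal cap was thus set off from the section beside it, and B from C much less so. The median log2 ratio of A to B over all transcripts tested was -0.00, and differences are given relative to it.

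As a description of the calls, which were made on these same 3 oocytes and so favour a shared direction, of the 1223 transcripts called higher in A 1215 were higher in A in each of the 3 oocytes, and of the 353 called higher in B, 349 were higher in B in each. The median log2 ratio of the first set was 0.72 in oocyte 5, 0.82 in oocyte 6 and 0.81 in oocyte 8, and that of the second -0.39, -0.47 and -0.42. Across 14334 transcripts with a scaled count of at least 200, the log2 ratios of A to B of different oocytes had Pearson correlations of 0.472 (oocytes 5 and 6), 0.478 (5 and 8) and 0.578 (6 and 8), and Spearman correlations of 0.299, 0.272 and 0.438. These correlations run across transcripts, which are not independent replicates, and serve as a description.

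The median difference was larger for the transcripts higher in A, while the shares over 4-fold and 8-fold were larger for those higher in B. The median difference of the 1223 was 0.82 on the log2 scale, and 492 of them exceeded 2-fold (1.62% of the transcripts tested), 94 exceeded 4-fold and 22 exceeded 8-fold. The median of the 353 was -0.43, with 73 over 2-fold (0.241%), 37 over 4-fold and 20 over 8-fold. Calls were more frequent among abundant transcripts, in which smaller differences can be detected. Of the transcripts with a scaled count between 20 and 200, 2.32% were called higher in A, with a median of 1.43 (log2), against 10.6% of those over 2000, with a median of 0.45. For transcripts higher in B these shares were 0.481% and 5.49%, with medians of -1.53 and -0.28. In scarce transcripts, small differences were not detectable at this depth.

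**Figure D2:**
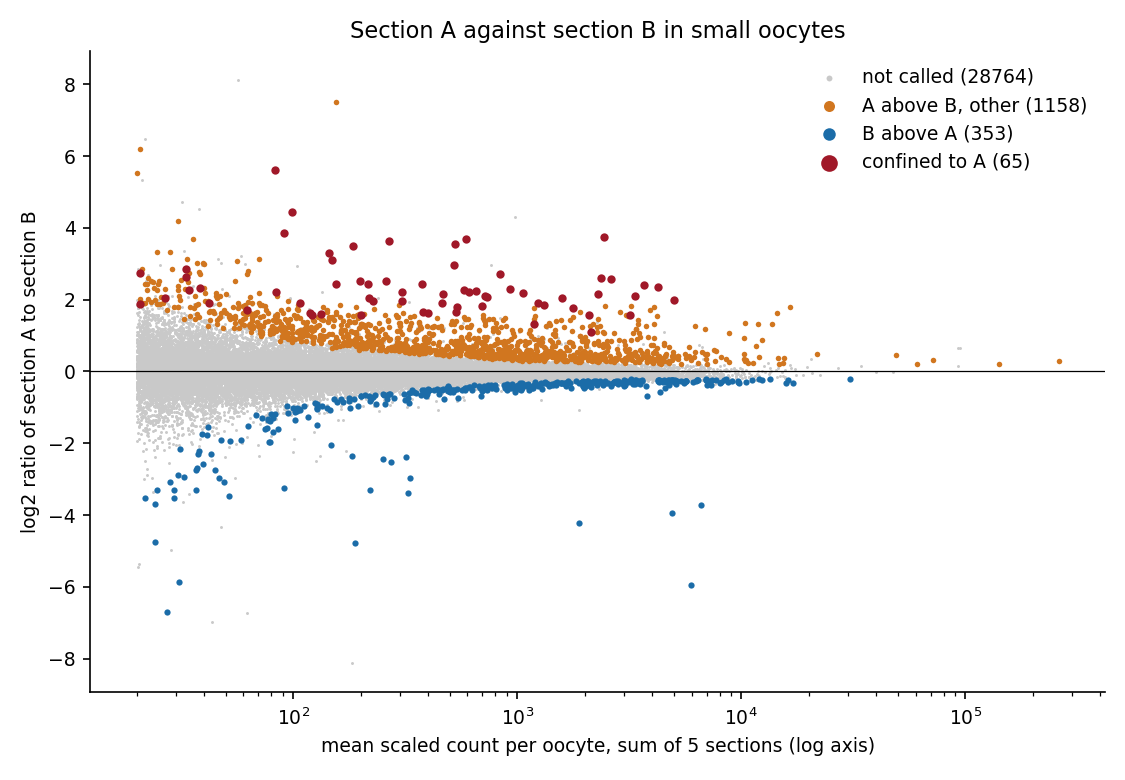
Log2 ratio of section A to section B in small oocytes (fitted over 3 oocytes) against the mean scaled count per oocyte (log axis); each point is 1 of 30340 transcripts, coloured by the outcome of the test. The 65 transcripts confined to A and the other 1158 called higher in A lie above 0, and most of the 353 called higher in B lie just below it, with 10 well-counted transcripts far below.

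Seen over all 5 sections, most transcripts higher in A than in B had their maximum in A. The highest mean level of the 1223 lay in A for 1149, in E for 71 and in C or D for 3. Here and below, the means of C, D and E include oocyte 7, while those of A and B rest on oocytes 5, 6 and 8. Section A was also above C for 1124 of them (A above C held for 7.72% of all transcripts tested), above D for 1147 (8.86%) and above E for 747 (4.57%). The counts they took of a library were 14.7%, 15.9% and 14.1% in A of oocytes 5, 6 and 8, and 10.3%, 10.4% and 9.39% in B. In C, D and E the share lay between 8.82% and 11.6%. The 1223 were chosen as higher in A than in B. The maxima, the calls against A and these shares reuse the same A libraries, so a high A is built in.

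A part of the A-high set was high at the vegetal end as well. For 292 of the 1223 transcripts E was above D (E above D held for 4.30% of all transcripts tested). Between A and E themselves, which differed for 9.97% of all transcripts tested, 217 of the 292 showed no difference past the threshold, 56 were higher in A and 19 higher in E. The median log2 difference of these 292 was 1.12 between A and B but 0.33 between A and E. An example with a total of at least 200 is TRINITY_DN50981_c0_g1_i1_1, which was at 39.5, 66.0 and 38.8 CPM in A, at 18.4, 28.9 and 16.3 CPM in B and at 54.0, 37.7 and 39.1 CPM in E of oocytes 5, 6 and 8. Within each oocyte A exceeded B (log2 1.23 ± 0.238, edgeR adjusted p = 0.00735), while A and E overlapped (adjusted p = 0.799). The call between A and B was lost without oocyte 8 (adjusted p = 0.2). The most abundant transcript among those called, TRINITY_DN55333_c4_g1_i1_1, chosen after its values were seen, showed the same form at a smaller size. It was at 14567, 15553 and 13136 CPM in A and at 13479, 12752 and 11031 CPM in B (log2 0.28 ± 0.076, adjusted p = 0.0277), and at 16448, 15477 and 16636 CPM in E. Its levels in A and B overlapped between oocytes although A was the higher within each, and its call was lost without oocyte 6 (adjusted p = 0.112) or 8 (0.165), without the oocyte block (0.41) and with library totals (0.105).

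Confinement to A was defined as a level above B, C, D and E, each past the threshold, with at least 50% of the scaled total in A in each of oocytes 5, 6 and 8. The 4 tests alone were passed by 719 transcripts (2.37%). Of these, 65 also met the share (0.214%), which is 5.31% of those higher in A than in B. They fall into 62 groups of contigs whose identifiers differ only in the isoform number and the suffix after it. This grouping is finer than the assembly group number used below. Of the 65, 43 had a scaled count of at least 200. Complete restriction to the cap was rare even here. The median share in A was 62.1%, against 19.9% over all transcripts tested, a contrast that the limit of 50% fixes in advance. The lowest share over the 3 oocytes reached 60% for 30 transcripts, 70% for 15, 80% for 8 and 90% for 1. Just inside and just outside the limit, the lowest share of a transcript was 50.12% and 49.98%.

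The definition of confinement requires A to stand above the other sections in these same oocytes, so the step down from A is built in. With that limit, the profile of the confined transcripts was steep over the animal end and flat beyond it. Their median log2 difference was 2.19 between A and B, and 1.07 between B and C, where 29 of the 65 were called higher in B (B above C held for 0.277% of all transcripts tested), none higher in C, and 36 showed no call. They took 0.945%, 0.954% and 0.856% of the counts in A of oocytes 5, 6 and 8, between 0.199% and 0.249% in B, and between 0.0879% and 0.113% in C, D and E. The summed level in B, to which the abundant members contribute most, was thus intermediate rather than equal to that of the rest of the oocyte. For the 36 without a call between B and C, an intermediate level in B was not shown. Of the 65, 4 had E above D, which held for 4.30% of all transcripts tested.

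**Figure D3:**
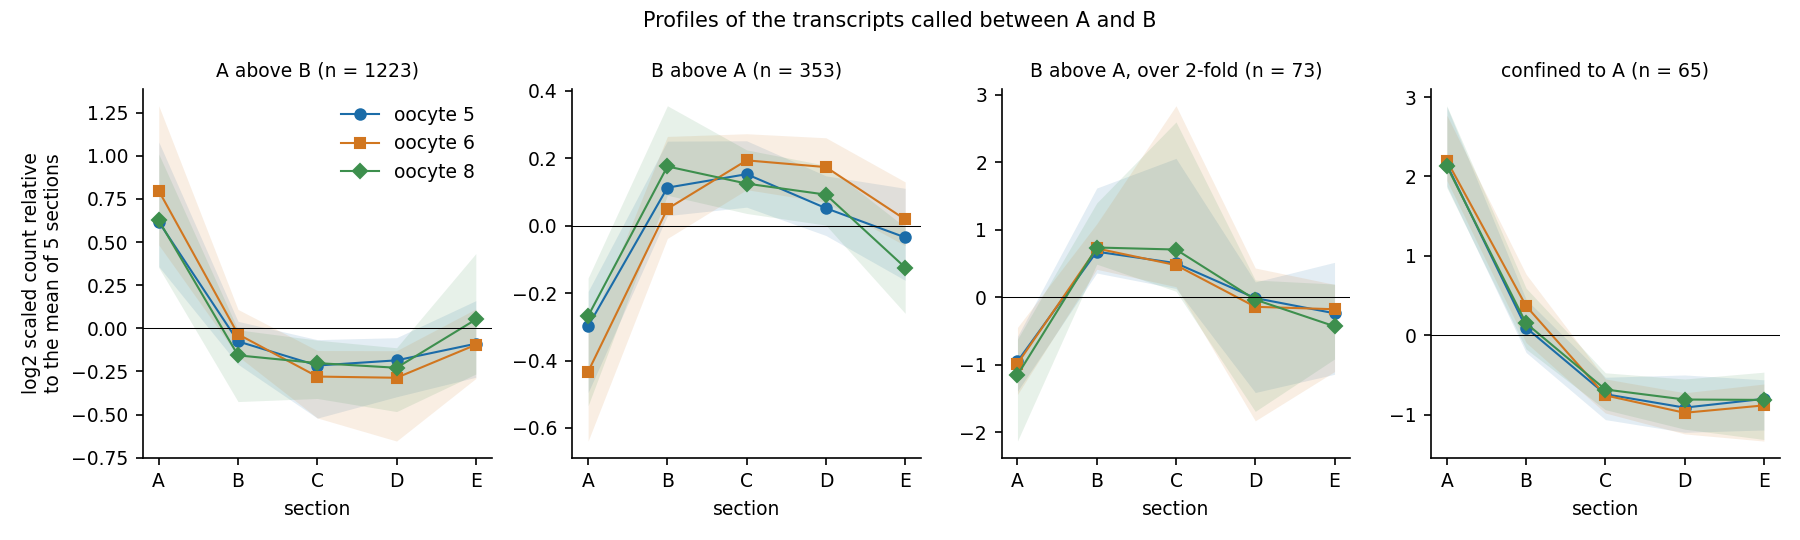
Median log2 scaled count in sections A to E, relative to the mean of the 5 sections, for the transcripts called between A and B, with 1 line for each of oocytes 5, 6 and 8 and bands for the middle 50% of transcripts; the vertical scales differ. The 65 confined transcripts fall from A through B to a floor in C, D and E, and the 73 transcripts over 2-fold higher in B have bands that widen upwards in C.

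The transcripts with the largest step and the highest share in A, by the naming rule, all resembled exd2. TRINITY_DN53171_c2_g2_i1_1 carries the same assembly group number as exd2. It was at 143.1, 127.6 and 134.1 CPM in A and at 8.14, 15.8 and 8.94 CPM in B of oocytes 5, 6 and 8, without overlap. The difference was 3.70 ± 0.187 on the log2 scale (edgeR adjusted p = 6.82e-14), and A held 90.4% ± 2.91 (SD, n = 3) of its scaled total. In all, 3 of the 7 tested contigs with this group number were confined to A. Reads can be shared between related contigs and the counting divides them by estimate, so these contigs are not independent cases.

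TRINITY_GG_116938_c0_g1_i1_1 had the highest share in A of the transcripts with a total of at least 200, at 91.0% ± 2.05 (SD, n = 3). It was at 132.7, 130.3 and 98.5 CPM in A and at 9.42, 15.6 and 7.55 CPM in B, again without overlap (11.7-fold, log2 3.55 ± 0.194, edgeR adjusted p = 4.73e-13). Beyond B it fell to between 0 and 0.837 CPM in the 4 C libraries, which rests on 0 to 4 counts a library. Among very abundant transcripts, TRINITY_DN54601_c2_g2_i2_1, chosen after its values were seen, was at 2248, 2107 and 1664 CPM in A against 647.6, 613.8 and 551.4 CPM in B (3.46-fold, log2 1.79 ± 0.084, edgeR adjusted p = 7.24e-16). It missed the definition of confinement, because its share in A was 48.7%, 50.3% and 44.4% in oocytes 5, 6 and 8.

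Of the transcripts that rose from A to B, none was also called higher in B than in C. Of the 353, the highest mean level lay in C for 165, in B for 94, in D for 54 and in E for 40. The test called 0 of them higher in B than in C as well as in A (0.00%). Over all 30340 transcripts tested, 59 met both conditions at an unadjusted p under 0.05 in edgeR. DESeq2 called 0, with 17 of all transcripts at an unadjusted p under 0.05. Both contrasts share the B libraries, so these unadjusted counts are no evidence of a peak in B. Section C was above A for 288 of the 353 (C above A held for 5.79% of all transcripts tested) and D was above A for 271 (6.31%), but E for only 112 (5.40%). The 353 were chosen as lower in A than in B, and the calls against A reuse the same A libraries, so a low A is built in. The 0 calls of a peak in B decide little, since B above C held for 0.277% of all transcripts tested. For most of these transcripts the highest mean level lay beyond B, but a further rise was seldom called. Section C was above B for 14 of the 353 (C above B held for 0.303% of all transcripts tested). The median log2 ratio of B to C was -0.06. In terms of counts, they took 3.16%, 2.89% and 3.25% of A and 4.07%, 3.99% and 4.47% of B.

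The smaller steps among them formed broad plateaus. For the 280 transcripts under 2-fold, the median log2 ratio of A to C was -0.43, that of A to D -0.40 and that of A to E -0.23. Section A was thus the lower side of each. Section D was above E for 45 of them (D above E held for 0.709% of all transcripts tested). TRINITY_GG_11429_c7_g1_i5_1, an abundant example chosen after its values were seen, was at 709.0, 655.2 and 767.3 CPM in A and at 950.1, 878.0 and 949.6 CPM in B. All B levels lay above all A levels (log2 -0.32 ± 0.075, edgeR adjusted p = 0.00797), and the 4 C libraries held 984.2 to 1047 CPM. In E it was back at 699.9 to 877.8 CPM. The call was lost without oocyte 5 (adjusted p = 0.163).

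The 73 transcripts more than 2-fold higher in B differed from the 280 smaller steps in their calls between C and D. Their highest mean level was in C for 33 and in B for 26, against 132 and 68 of the 280. Section C was above A for 50 of them, against 238 of the 280 (C above A held for 5.79% of all transcripts tested). It was above D for 28, against 1 of the 280 (C above D held for 0.577%). A drop from C to D was thus not called for most of the 73. The 73 are mostly scarce, with 63 under a scaled count of 200, and 3 of them had no count in any A library. Together they took 0.0172%, 0.0225% and 0.0149% of the counts in A of oocytes 5, 6 and 8, 0.102%, 0.164% and 0.365% in B, 0.183%, 0.677% and 0.318% in C, and between 0.0235% and 0.0274% in D and E. The summed shares, to which the abundant members contribute most, were thus low in A, D and E and high in the middle of the oocyte. Member by member, D was above A for 33 (6.31% of all transcripts tested) and below A for 3 (8.86%) of the 73. Section E was above A for 20 (5.40%). The 73 were chosen as lower in A than in B, so a low A is built into the calls against A.

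Of the transcripts called higher in B with a scaled count of at least 200, 10 were over 2-fold higher in B. Their log2 differences ran from -2.39 to -5.94, and the next called transcript of that abundance had -0.91. Transcripts that did not pass the test are left out of this ranking, so a gap over all transcripts was not shown. All 10 had their highest mean level in C, a mean that includes oocyte 7. Section C was above A and above D past the threshold in each, and sections B and C together held at least 87.5% of the scaled total of each in every oocyte. Between A and D, 1 of the 10 differed past the threshold. Over all transcripts tested, A above D held for 8.86% and D above A for 6.31%. The median log2 difference between A and D of the 10 was 1.12, so a likeness of A and D was not shown. The median drop from C to D was 5.87 on the log2 scale, while the median log2 difference between A and C was -4.66.

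The largest of them, TRINITY_DN46906_c1_g1_i1_1, was at 6.91, 8.30 and 6.06 CPM in A of oocytes 5, 6 and 8, at 178.8, 473.3 and 949.0 CPM in B and at 405.4, 1815 and 784.9 CPM in C. The A levels were alike while the B levels differed widely from oocyte to oocyte, and no B library came close to A (61.5-fold, log2 -5.94 ± 0.66, edgeR adjusted p = 0.000356). Without oocyte 8 the difference was -5.23, and without oocyte 5 it was -6.54. In D and E of these oocytes and oocyte 7 it was back at 3.79 to 9.83 CPM. The second contig of the same assembly group, TRINITY_DN46906_c1_g2_i1_1, followed it with 6.19, 10.03 and 4.44 CPM in A and 55.9, 137.5 and 259.2 CPM in B (18.7-fold, log2 -4.23 ± 0.619, edgeR adjusted p = 0.00276, and -3.44 without oocyte 8). Both tested contigs of this group were among the 10, and reads may be shared between them. With the libraries of A and B fitted on their own, the edgeR adjusted p was 0.0583 for the first contig and 0.0993 for the second.

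Others of the 10 also varied between oocytes. TRINITY_DN27042_c0_g1_i3_2 was at 17.4, 39.4 and 10.9 CPM in A and at 58.7, 253.5 and 1130 CPM in B (log2 -3.96 ± 0.929, edgeR adjusted p = 0.0448). The groups do not overlap, but leaving out oocyte 5, 6 or 8 ended the call (adjusted p = 0.135, 0.17 and 0.156), and the difference was -2.25 without oocyte 8. TRINITY_DN42989_c0_g1_i2_1, chosen after its values were seen, was at 29.5, 46.7 and 25.4 CPM in A against 230.8, 404.1 and 869.0 CPM in B (log2 -3.72 ± 0.511, adjusted p = 0.00175, and -2.98 without oocyte 8). TRINITY_DN22804_c0_g1_i1_2, chosen likewise, was at 1.43, 6.22 and 0.404 CPM in A, which is 6, 18 and 1 counts, against 30.19, 15.97 and 18.87 CPM in B (log2 -2.96 ± 0.602, adjusted p = 0.019). Its difference was -2.23 without oocyte 5 and -4.44 without oocyte 6. When the 6 libraries of A and B were fitted on their own, the calls of these 3 transcripts were lost (adjusted p = 0.401, 0.183 and 0.206).

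The position of the maximum within B and C was not the same in every oocyte. For TRINITY_DN46906_c1_g1_i1_1 the ratio of the CPM in B to that in C was 0.441, 0.261 and 1.21 in oocytes 5, 6 and 8, for TRINITY_DN27042_c0_g1_i3_2 it was 0.312, 0.159 and 2.17, and for TRINITY_DN42989_c0_g1_i2_1 it was 0.409, 0.194 and 1.07. These 3 transcripts were highest in B in oocyte 8 and highest in C in oocytes 5 and 6. TRINITY_DN22804_c0_g1_i1_2 had ratios of 0.82, 0.239 and 0.253 and was highest in C in all 3. Over the 10 transcripts, the scaled level in B exceeded that in C for 1 in oocyte 5, for 0 in oocyte 6 and for 3 in oocyte 8.

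The next question was whether the step from A to B was the same in big oocytes. The step was tested between the stages over all 35 libraries, with 33209 transcripts, and was larger towards A in small oocytes for 385 (1.16%) and in big oocytes for 1336 (4.02%). Within big oocytes, 3247 transcripts were higher in A than in B (9.78%) and 1599 higher in B than in A (4.81%). In the same fit, small oocytes gave 870 and 188. Below, the sets and medians of small oocytes come from the fit of 18 libraries with the oocyte block. The calls and medians of big oocytes come from the fit over 35 libraries. The latter fit does not use the pairing of A and B within an oocyte, and with the oocyte block the counts of the stage test were 695 and 1609. With TMM scaling 202 were towards A in small oocytes. Without oocyte 3, 6 or 8 it called 151, 125 or 133 transcripts towards A in small oocytes, and without oocyte 6 or 8 it called 856 or 853 towards A in big oocytes.

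Most transcripts confined to A in small oocytes were also higher in A in big ones. Of the 65, 61 were higher in A than in B in big oocytes (9.78% of all transcripts were), none was higher in B, and the median log2 difference was 2.82, against 2.19 in small oocytes. The difference between the stages passed the test for 13 of them towards big oocytes (4.02% of all) and for 2 towards small (1.16% of all). The marker exd2 was at 361.8, 178.2, 255.9 and 218.0 CPM in A of big oocytes 1, 2, 3 and 11 and at 19.4, 14.0, 8.08 and 11.0 CPM in B. Its step of 4.36 (log2) overlapped with that of small oocytes, and the difference did not pass the test (-0.61 ± 0.348, small minus big, edgeR adjusted p = 0.455). The steps of slc44a3 overlapped as well (0.07 ± 0.322, adjusted p = 0.967).

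The whole A-high set was shared in part. Of the 1223 transcripts, 628 were also higher in A in big oocytes, which is 51.4% of this set and 19.3% of the transcripts higher in A in big oocytes. A further 585 showed neither call, and 10 were higher in B. The stage test found a larger step towards A in small oocytes for 129 and in big oocytes for 214 of them. Over all transcripts these shares are 9.78% for A above B in big oocytes, and 1.16% and 4.02% for the stage test. Of the 353 transcripts higher in B, 43 were higher in B in big oocytes as well (12.2%, against 4.81% of all), 39 were higher in A (11.0%, against 9.78% of all) and 271 showed neither call. The step was more towards A in big oocytes for 94 of the 353 and in small oocytes for 0. Both sets were chosen on their step in small oocytes, which favours a smaller step in big ones.

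Some of the centrally high transcripts changed the direction of their step between the stages. All 10 had a step that was more towards A in big oocytes, past the threshold (4.02% of all transcripts), and 5 of the 10 were higher in A than in B in big oocytes (9.78% of all). The edgeR adjusted p of that call was 0.0794 for TRINITY_DN46906_c1_g1_i1_1, 0.0532 for TRINITY_DN46906_c1_g2_i1_1, 0.061 for TRINITY_DN27042_c0_g1_i3_2 and 0.0384 for TRINITY_DN42989_c0_g1_i2_1. In big oocyte 1 the log2 ratio of A to B was below 0 in each of these (-0.24, -0.264, -0.311 and -0.321). Whether the 5 calls hold without oocyte 11 was not tested. The 10 were chosen for their steep step in small oocytes, so the stage difference is favoured by the choice and is given as a description. For TRINITY_DN46906_c1_g1_i1_1 the levels in big oocytes 1, 2, 3 and 11 were 352.5, 893.3, 1246 and 15258 CPM in A and 465.2, 189.7, 812.2 and 2593 CPM in B, while C, D and E lay between 2.65 and 15.4 CPM. The log2 ratios of A to B were -0.24, 2.27, 0.67 and 2.74 in big and -4.60, -5.70 and -7.17 in small oocytes, without overlap (-8.45 ± 1.63, small minus big, edgeR adjusted p = 0.00179). Oocyte 11 had by far the highest level in A, and the difference was -6.99 without it (adjusted p = 6.45e-05) and -7.66 without oocyte 8 (0.052).

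For TRINITY_DN27042_c0_g1_i3_2 the levels in big oocytes 1, 2, 3 and 11 were 101.2, 286.4, 219.3 and 20328 CPM in A and 140.3, 59.6, 212.8 and 1517 CPM in B. Oocyte 11 again stood apart, and the stage difference of -7.97 ± 2.1 (edgeR adjusted p = 0.0293) was -4.97 without it (0.0137). It lost its call without oocyte 5, 6 or 8 (adjusted p = 0.107, 0.126 and 0.314). In contrast, TRINITY_DN22804_c0_g1_i1_2 was scarce in all sections of big oocytes, at 0.414 to 6.76 CPM. For the pair of abundant contigs and for TRINITY_DN27042_c0_g1_i3_2, high levels lay in B and C of small oocytes but in A and B of big ones.

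The largest stage differences in the other direction by the naming rule were smaller. TRINITY_DN50981_c0_g1_i1_1, higher in A than in B in small oocytes, was at 5.75, 11.2, 5.56 and 8.26 CPM in A and at 5.80, 24.0, 9.65 and 19.0 CPM in B of big oocytes 1, 2, 3 and 11 (stage difference 2.25 ± 0.53, edgeR adjusted p = 0.0123). TRINITY_GG_29797_c0_g1_i1_1 was at 54.1, 70.2 and 51.3 CPM in A and 54.2, 63.3 and 44.7 CPM in B of small oocytes, which overlap (adjusted p = 0.819). In big oocytes it was at 8.58, 22.7, 11.9 and 17.1 CPM in A and at 29.99, 71.5, 58.6 and 59.0 CPM in B, without overlap (stage difference 2.12 ± 0.408, adjusted p = 0.00171). The marker dnd1 belonged to the same kind, with log2 ratios of A to B of -0.01, -0.11 and -0.11 in small and -0.77, -1.52, -1.21 and -1.03 in big oocytes (1.19 ± 0.305, adjusted p = 0.0245). Its call was lost without oocyte 5, 6 or 8 (adjusted p = 0.133, 0.103 and 0.131), although the difference stayed at 1.14, 1.20 and 1.20, and it held with the oocyte block (8.65e-06).

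**Figure D4:**
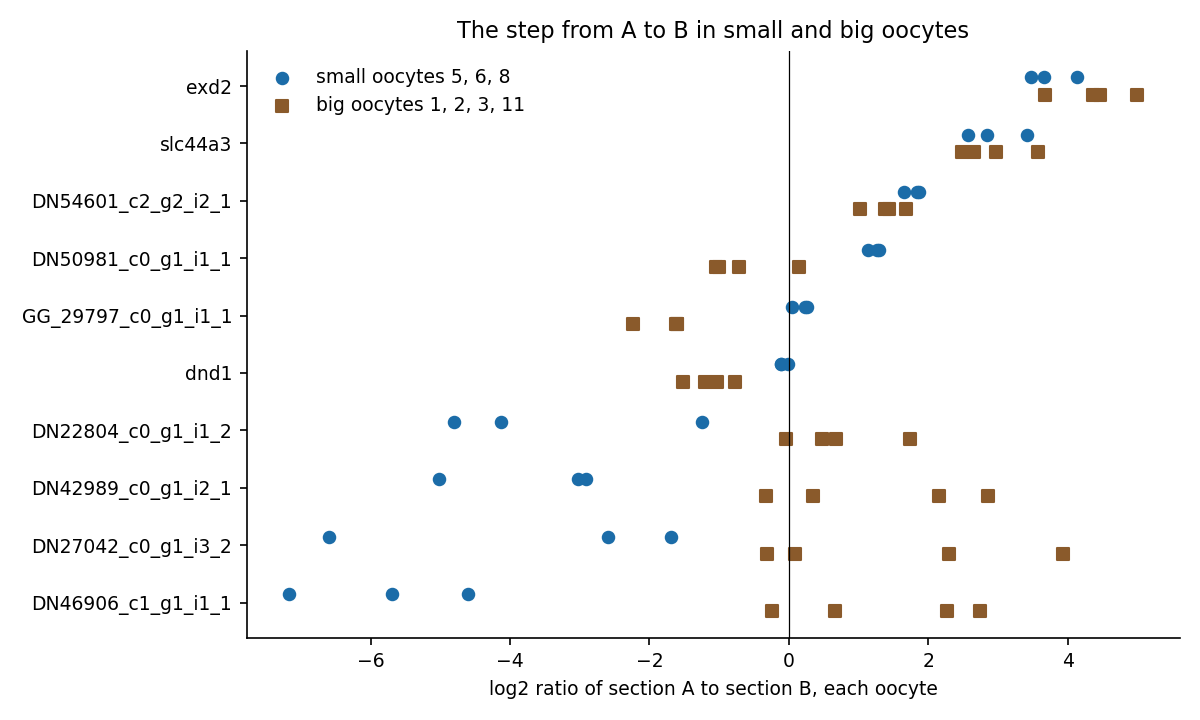
Log2 ratio of section A to section B in each oocyte (pseudocount 1 on scaled counts) for 10 transcripts, with circles for small oocytes 5, 6 and 8 and squares for big oocytes 1, 2, 3 and 11; the prefix TRINITY_ is left out. The ratios of exd2 and slc44a3 overlap between the stages, and those of the last 4 transcripts lie below 0 in all small oocytes and around or above 0 in big ones.

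As a measure that does not depend on calls, the spread of the A-to-B ratio was taken within each oocyte: the log2 ratio was computed for 29485 transcripts and its SD over them was taken, after thinning every library to 1816470 counts. It was 0.601, 0.622 and 0.620 in small oocytes 5, 6 and 8, and 0.690, 0.619, 0.648 and 0.698 in big oocytes 1, 2, 3 and 11. The means were 0.614 ± 0.0114 (SD, n = 3) and 0.664 ± 0.0372 (SD, n = 4), the ranges overlapped, and the two-sided exact permutation test gave p = 0.114, where the smallest value it allows is 0.0571. Within small oocytes the spread between A and B exceeded that between B and C (0.564 ± 0.00743, SD, n = 3) in 3 of 3 oocytes, by 0.0507 on average. The exact sign-flip test gave p = 0.25, the smallest that 3 pairs allow, so it could not pass any usual threshold. A large part of such a spread is counting noise, which the common depth makes similar but does not remove.

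**Figure D5:**
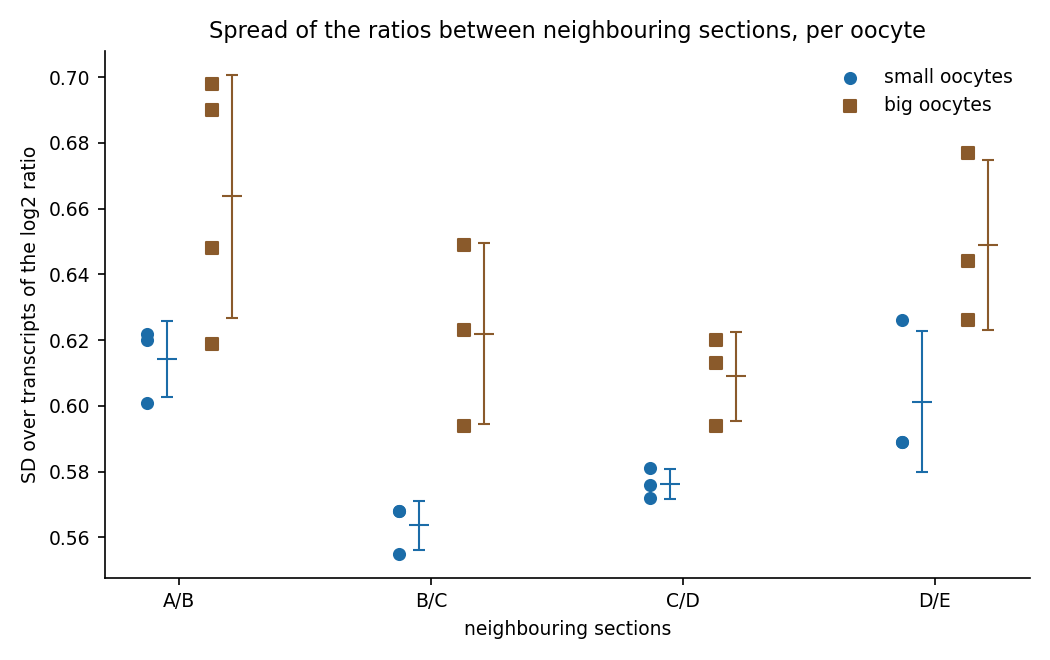
SD, taken over transcripts, of log2 ratios between neighbouring sections, at a common depth, for each small oocyte (circles) and big oocyte (squares); bars give the mean and SD over oocytes (3 or 4), and the vertical axis does not start at 0. In small oocytes the A/B values (0.601 to 0.622) lie above the B/C values (0.555 to 0.568).

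The number of calls depended on the oocytes in the fit. Without oocyte 6 or 8, 785 or 786 transcripts were higher in A, and without oocyte 5, 6 or 8, 137, 137 or 134 were higher in B. After thinning all small libraries to 1653598 counts, an alternative chosen after seeing the depths, 851 transcripts were higher in A and 214 higher in B.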

How the data were processed

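Single sterlet oocytes were cut into 5 sections along the A-V axis and each section was sequenced after ribosomal depletion (TOMO-Seq). Per the study's methods and the labels, the authors quality-trimmed the reads, discarded those of ribosomal and mitochondrial origin, and used kallisto 0.43.1 to quantify the remainder against a transcriptome assembled for the species. What they deposited are the estimated counts of that step, an unnormalized value per transcript and library, all whole numbers (100%). No coordinates are given, since the transcriptome has none in the sources used here. Tables of normalized counts and of totals per oocyte were not used.

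Sections were compared by a quasi-likelihood model (edgeR 4.0.16, R 4.3.3) with robust dispersions, median-of-ratios scaling as in the study, oocyte as block and section, over the 18 small libraries. Transcripts needed a scaled total over 20 per complete oocyte. P-values were adjusted by Benjamini and Hochberg at 0.1. The stage difference was fitted over 35 libraries on stage and section without the block, as in the study. The pairing is given by the cell. Deviations of A and B of the same oocyte correlated weakly, at 0.0689, 0.133 and 0.0717, and those of different oocytes at -0.0457 on average. Deviations from a section mean cancel over the oocytes, so the value between oocytes follows from those within them. The contrast of these values is therefore no evidence for the pairing. Spread used a prior count of 2. The scripts were tested on simulated data. DESeq2 1.42.0 and the alternatives are described at the end.

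Named transcripts were, for each comparison and direction, the 2 with the largest change (or highest share in A) among the called ones whose scaled count was 200 or more and whose direction was shared by every oocyte (between stages, no overlap), plus the 3 markers; exceptions are marked. The comparison, lists and definitions were chosen with earlier results of these data known. P-values measure the spread between cells of 1 female.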

Additional observations from a re-analysis of the deposited data

Results flagged for a closer look

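Among 46 sets of 4 libraries examined for the named transcripts, 7 held a library far from the other 3. The rule has a nominal rate of about 1 in 20 for independent sets. These sets share libraries and related contigs and are not independent, and most of the transcripts were picked for large differences. The rate to be expected by chance here is therefore not known. Of the 7, 5 were libraries of big oocyte 11. In its section A, TRINITY_DN46906_c1_g1_i1_1 was at 15258 CPM, TRINITY_DN46906_c1_g2_i1_1 at 1551 CPM, TRINITY_DN27042_c0_g1_i3_2 at 20328 CPM and TRINITY_DN42989_c0_g1_i2_1 at 8911 CPM, and in its section B, TRINITY_DN27042_c0_g1_i3_2 was at 1517 CPM. All were above the other 3 big oocytes, and the A library of oocyte 11 is the shallowest of its group (1816470 counts, with 10.2% of them in its 10 most abundant transcripts, against 3.04% to 4.19% in A of the other big oocytes). The most abundant of the flagged transcripts count towards that 10.2%, so it is not a separate trait of the library. The remaining 2 lay in section C of small oocytes and were low values of transcripts confined to A, with TRINITY_DN53171_c2_g2_i1_1 at 0.779 CPM in oocyte 8 (3 counts) and TRINITY_GG_116938_c0_g1_i1_1 at 0 CPM in oocyte 7 (0 counts).

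The step from A to B differed between the stages for 8 named transcripts by the test of the difference itself (edgeR, log2, small minus big). It was more towards A in big oocytes for TRINITY_DN46906_c1_g1_i1_1 (-8.45), TRINITY_DN27042_c0_g1_i3_2 (-7.97), TRINITY_DN46906_c1_g2_i1_1 (-6.58), TRINITY_DN42989_c0_g1_i2_1 (-5.87) and TRINITY_DN22804_c0_g1_i1_2 (-3.44). It was more towards A in small oocytes for TRINITY_DN50981_c0_g1_i1_1 (2.25), TRINITY_GG_29797_c0_g1_i1_1 (2.12) and dnd1 (1.19). The call of TRINITY_DN46906_c1_g2_i1_1 was lost without oocyte 8 (adjusted p = 0.11), and those of TRINITY_DN27042_c0_g1_i3_2 and dnd1 were lost without oocyte 5, 6 or 8.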

How the results depend on the processing

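No called result changed direction under the alternatives run, while the stage differences of slc44a3 and TRINITY_DN53171_c2_g2_i1_1, which are near 0 and not called, changed sign (to -0.03, -0.01 and -0.15 without oocyte 1, 2 or 5, and to 0.19 without oocyte 6). Counts of transcripts higher in A stayed within 1.5 times of 1223, apart from leaving out an oocyte (785 to 1167). The 353 higher in B became 879 with library totals, 173 with DESeq2, 224 with no replicate block, 660 with the 6 libraries of A and B alone, 214 after thinning and 134 to 340 without 1 oocyte. The count confined to A became 43 with a filter of 200, 150 at 40% and 30 at 60% of the scaled total, and 65 to 74 without 1 oocyte. The count peaking in B became 1 with library totals and 1 with a filter of 200 (both TRINITY_DN53438_c0_g3_i1_1), and 0 to 1 without 1 oocyte (TRINITY_GG_45495_c0_g1_i1_1 without oocyte 7), each chosen after its values were seen. Of the stage differences, the 385 towards A in small oocytes became 202 with TMM scaling, 248 with no filter on low counts, 695 with the replicate block and 125 to 397 without 1 oocyte, and the 1336 in big oocytes became 853 to 1354. The spread of A to B became 0.414 with a filter of 200 and 0.866 with a prior count of 0.5 (0.611 to 0.621 without 1 oocyte), and its excess over B to C became 0.0795 with no thinning (0.0435 to 0.057 without 1 oocyte). The cause was not tested, other than that filters and left-out oocytes reduce what is tested. The block changed no other call than those given. Low counts limit the scarce transcripts, and 3 oocytes of 1 female limit all p-values.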

Other observations

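Identifiers of the assembly end in 1 or 2, and the sources used here do not say what this last number means. Of the 30340 transcripts tested, 1165 end in 2 (3.84%). Of these, 11.6% were higher in A than in B (135), against 3.73% of those ending in 1 (1088 of 29175). Section E was above D for 17.2% of the first kind (200) and for 3.79% of the second (1106), and 78 of the 135 were high at both ends in this sense, against 214 of the 1088. All 26 of them that were higher in B were more than 2-fold so, and 7 of the 10 centrally high transcripts with a total of at least 200 end in 2. Transcripts ending in 2 had a median scaled count of 67.7, against 184.9 for those ending in 1. No test was made of these shares.

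Contigs that were assembled with the guidance of a genome made up 35.2% of all transcripts tested, 25.1% of those higher in A and 34.3% of those higher in B.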
